A study of Hordeum vulgare with 64 samples.

Results

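Expression was followed for 4 MADS-box floral repressor genes of barley, the 3 SVP-like genes BM1 (HORVU4Hr1G077850), BM10 (HORVU6Hr1G077300) and VRT2 (HORVU7Hr1G036130), and the grass gene ODDSOC2 (HORVU3Hr1G095240). They were chosen by these identifiers for what the genes are known for, by a rule that uses no measured value. All 4 were present among the 43050 rows of both expression tables and passed the filter on low values in every fit. The pairing of names with identifiers came with the selection and could not be checked against the tables, which hold identifiers only.

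The libraries came from the barley varieties Naso Nijo (NN), which is sensitive to these stresses, and TX9425 (TX), which tolerates them, grown in pots in a greenhouse and treated at the stage of 3 leaves. Leaves and roots were sampled in a salt experiment with 300 mM NaCl (0 h, 1 h, 24 h and 10 d) and in a waterlogging experiment with water standing 1 cm above the soil (0 h, 1 h, 72 h and 2 w), with 2 libraries in each of 32 groups where the methods state 3 biological replicates. The 0 h groups were the only controls, so that in a late difference the stress and the older age cannot be told apart, nor the stress and the hour of sampling in an early one. The methods have both varieties sharing a pot, and neither they nor the labels say whether the libraries of a group came from separate pots. The p-values measure the spread between these libraries.

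MADS-box proteins are transcription factors that bind DNA as dimers and set the identity of meristems and floral organs. In winter cereals the SVP-like genes are active in the vegetative plant, respond to cold and are turned down as the inflorescence develops. BM1 and BM10 are known from barley for delaying the development of the inflorescence when overexpressed. VRT2, the vegetative to reproductive transition gene, is named after that switch. ODDSOC2 belongs to a branch of the family that only grasses have. It keeps cereals vegetative, and its transcript drops once a plant has passed through cold. VRN1, VRN2 and FT genes were not analysed here, since no table paired their names with identifiers.

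Values were FPKM, the fragments of a gene scaled by its exon length and by the size of the library, so that levels could be set side by side between genes. The depth of the libraries, read from the step that 1 read makes in low values, ranged from 0.201 to 1.06 of that of the reference library, and it gives estimated reads behind each value. Members' values of up to 1000 reads (64 of ODDSOC2, 36 of VRT2, 21 of BM1 and 9 of BM10) all lay within 0.1 of a whole read, and larger numbers were not checked. BM1 rested on an estimated 181 to 4900 reads per library, BM10 on 323 to 3250, and VRT2 on 671 to 7756 in leaves but on 5 to 421 in roots. ODDSOC2 rested on 0 to 75 reads in leaves and on 16 to 647 in roots. Genes of the other tissue were low throughout: 40 genes limited to leaves in the waterlogging experiment summed in every salt root to between 0.0329% and 0.224% of their level in salt leaves. In waterlogging leaves 20 genes limited to roots under salt summed to between 0.0295% and 1.54% of their root level, highest in the first NN libraries of 2 w and of 0 h (0.97%). Some libraries departed from the rest. Of 45 genes seen in TX but not NN among the waterlogging roots (TX-only genes), 18 were above 0.5 FPKM in the first NN leaf library of 1 h of salt against 1 in the second, and 0 and 12 in the NN root libraries of 10 d. Of 54 NN-only genes, 12 and 5 were above it in the TX root libraries of 10 d. In 3 waterlogging leaf libraries (NN 2 w replicate 2, NN 72 h replicate 1 and TX 72 h replicate 2) rows with ENSRNA identifiers took 36.1%, 20.3% and 19.3% of all FPKM. They took 11.5% and 10.8% in the waterlogging leaves of TX 1 h replicate 1 and NN 72 h replicate 2. In 1 waterlogging root library (TX 1 h replicate 1) they took 14.6%. Differences are given on the log2(FPKM + 1) scale, which understates the change of low genes, and a difference was called at an adjusted limma p under 0.05 with a log2 difference beyond 1.

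The 4 genes fell into 3 patterns by tissue. BM1 and BM10 were high in both leaves and roots, and VRT2 was high in leaves and low in roots. ODDSOC2 was in the middle range in roots and close to absent in leaves. In salt leaves the mean levels were 49.9 FPKM for BM1, 33.4 for BM10, 23.5 for VRT2 and 0.835 for ODDSOC2, and in salt roots 26.7, 28.1, 1.41 and 6.71 FPKM in the same order. BM1 was above 93.0% of the genes tested in salt leaves and above 85.0% in waterlogging roots, whereas ODDSOC2 in waterlogging leaves was above 3.29%. In salt and waterlogging roots ODDSOC2 was above 57.5% and 48.5% of the genes tested, and VRT2 above 26.6% and 12.1%. ODDSOC2 was the lowest of the 4 in 16 of 16 salt leaf libraries and in 16 of 16 waterlogging leaf libraries. VRT2 was the lowest in 13 of 16 salt root libraries and in 14 of 16 waterlogging root libraries.

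VRT2 was the gene of the 4 that differed by tissue throughout. It was called higher in leaves in 16 of 16 comparisons of leaf with root, by 2.31 to 5.25 on the log2 scale, and all 16 calls held under every alternative run. Over the 16 comparisons together 11.9% of the tests were called higher in leaves, 23.3% lower and 35.2% in either direction, and single comparisons called between 23.2% and 43.8%. ODDSOC2 lay the other way, called lower in leaves in 13 of 16 comparisons, with differences of -3.28 to -0.48. The exceptions were NN after 1 h of salt and both varieties after 1 h of waterlogging. Its call was lost in NN at 24 h of salt without replicate 2 of the leaves (-1.29) or replicate 1 of the roots (-0.91), in NN at 10 d of salt without any of the 4 libraries (-1.43 to -1.22), and in NN at 2 w of waterlogging without replicate 2 of the leaves (-1.24) or replicate 1 of the roots (-0.94). BM1 was called higher in leaves in 7 of 16 and lower in 1, and BM10 was called in 0 of 16 by limma, with differences of -0.19 to 0.83 and an unadjusted p under 0.05 in 7. The BM1 calls lost when 1 library was left out were NN at 24 h of salt (0.96 without replicate 2 of the roots), TX at 10 d of salt (0.96 without replicate 2 of the roots) and the lower call, TX at 72 h of waterlogging (-1.05, or -0.66 without replicate 2 of the leaves, -1.09 and -1.02 without replicates 1 and 2 of the roots). Scaling moved this family of comparisons most: with median-ratio scaling the median gene shifted by up to 0.49 toward leaves, and BM10 was then called higher in leaves in 5 comparisons, by 1.06 to 1.57, whereas the TX difference of BM1 at 72 h of waterlogging was -0.39.

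**Figure D1:**
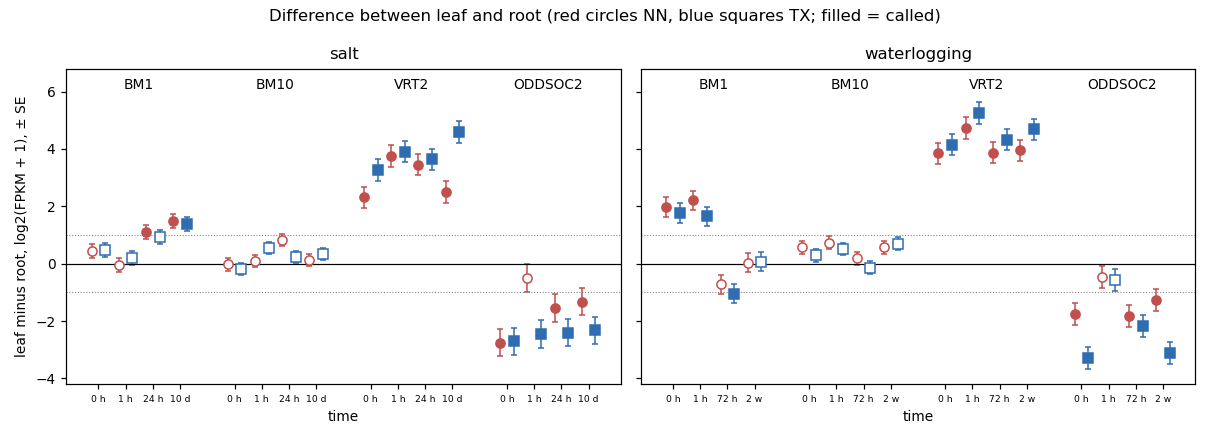
Difference between leaf and root on the log2(FPKM + 1) scale for each gene, variety and time, with its standard error; red circles are NN, blue squares are TX, filled symbols were called, and dotted lines mark a log2 difference of 1. VRT2 lies between 2.31 and 5.25 in all 16 comparisons and ODDSOC2 below 0 in all 16, whereas BM1 moves from above to below 0 in the waterlogging experiment.

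BM1 rose in salt leaves only at the last time, and by nearly the same size in both varieties. In NN leaves its level was 29.99 and 38.3 FPKM at 0 h, 25.6 and 24.4 at 1 h, 40.2 and 44.1 at 24 h, and 90.4 and 94.5 at 10 d. In TX leaves it was 33.8 and 43.1 FPKM at 0 h, 30.3 and 27.3 at 1 h, 49.0 and 33.3 at 24 h, and 89.5 and 105 at 10 d. The 4 libraries of 10 d stood above all 12 others, with no overlap, which was not counted for other genes. Against 0 h the increase was 2.71-fold in NN (limma log2 difference 1.42 ± 0.21 SE, adjusted p = 0.000273) and 2.53-fold in TX (1.32 ± 0.21, adjusted p = 0.00111). At this time 27.8% of the genes tested were called in NN leaves and 16% in TX leaves. Both calls held under every alternative run. The response differed between the varieties by -0.10 (95% interval -0.74 to 0.54), which did not pass the test. The rise also passed the test against 24 h, by 1.12 in NN and 1.24 in TX, where 26.7% and 23.2% of the genes were called, but with median-ratio scaling these fell to 0.92 and 0.81, under the size threshold. Without replicate 2 of TX leaves at 24 h the TX value was 0.97.

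In salt roots BM1 did not pass the test at any time. NN roots held 23.6 and 26.0 FPKM at 0 h and 32.9 and 31.7 at 10 d, and TX roots 26.7 and 27.2 FPKM at 0 h and 49.3 and 27.3 at 10 d. The first TX library of 10 d was the highest of the 16 salt roots and the second lay next to the controls. From 24 h to 10 d the differences were 0.72 in NN (adjusted p = 0.0796) and 0.79 in TX (adjusted p = 0.0828). The TX one was 1.21 and called without replicate 2 of 10 d. That left replicate 1 alone, in which 12 of 54 NN-only genes were above 0.5 FPKM. In the salt roots 0.0538%, 0.157% and 23.3% of the genes were called against 0 h in NN and 1.8%, 0.816% and 3.52% in TX, in the order of the times. In NN the rise at 10 d exceeded that of the roots in leaves by 1.05 ± 0.34 (adjusted p = 0.0258), in a comparison that called 25.7% of the genes tested. This difference was 0.76 with median-ratio scaling, and it lost its call without replicate 1 of the leaf controls (0.88), replicate 2 of the root controls (0.99), replicate 2 of the 10 d leaves (1.02) or replicate 1 (1.08) or 2 (1.03) of the 10 d roots. In TX it was 0.89 ± 0.34 (adjusted p = 0.0901, 11.9% called), or 1.12 and called with median-ratio scaling and 1.30 and called without replicate 1 of the 10 d roots.

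**Figure D2:**
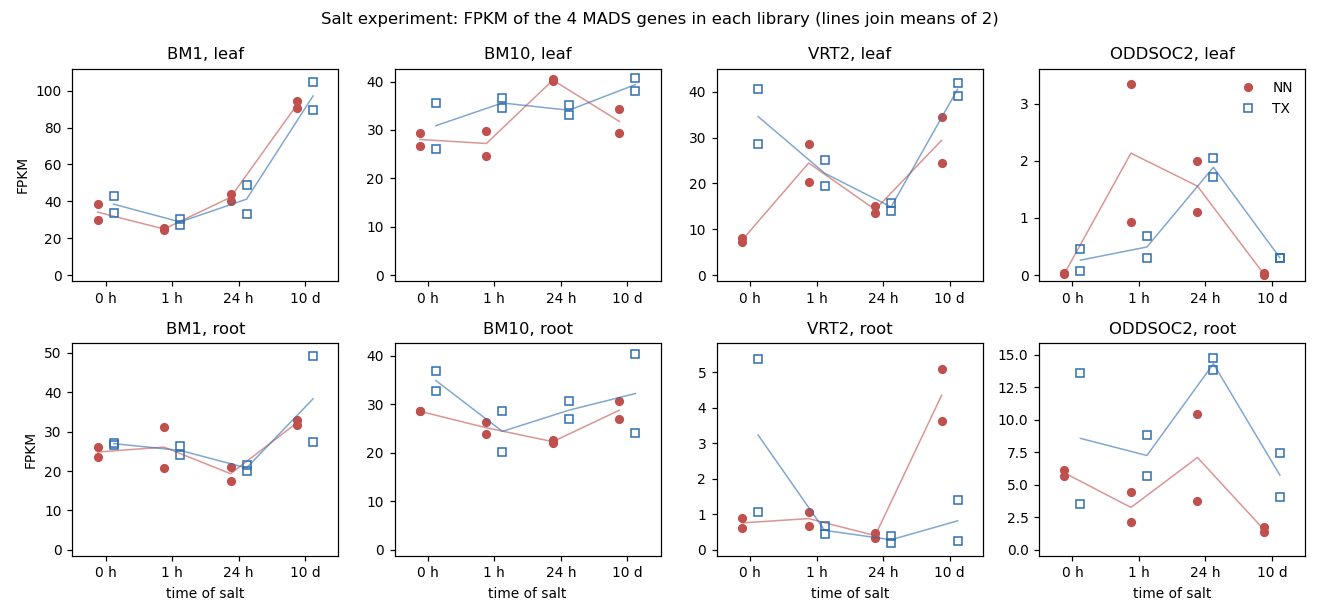
FPKM of the 4 genes in each library of the salt experiment by time, leaves above and roots below; red circles are NN, blue squares are TX, and lines join the means of 2 libraries. BM1 in leaves reaches 89.5 to 105 FPKM at 10 d in both varieties, VRT2 in leaves starts at 7.26 to 8.07 FPKM in NN and 28.6 to 40.6 FPKM in TX, and ODDSOC2 in leaves peaks at 1 h to 24 h.

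Under waterlogging BM1 changed in roots instead. NN roots held 16.1 and 9.10 FPKM of BM1 at 0 h, 6.85 and 5.26 at 1 h, 48.2 and 53.7 at 72 h, and 38.7 and 48.2 at 2 w. TX roots held 10.7 and 11.4 FPKM at 0 h, 5.84 and 9.90 at 1 h, 53.1 and 55.8 at 72 h, and 40.3 and 33.2 at 2 w. Every library of 72 h and 2 w was above every library of 0 h and 1 h. How many other genes had this was not counted. At 72 h the rise over 0 h was 4.05-fold in NN (log2 difference 1.98 ± 0.27, adjusted p = 0.000249) and 4.94-fold in TX (2.20 ± 0.27, adjusted p = 0.000118), where 23.4% and 22.8% of the genes tested were called. At 2 w it was 3.45-fold in NN (1.75 ± 0.27, adjusted p = 0.00274) and 3.33-fold in TX (1.65 ± 0.27, adjusted p = 0.00473), where 11% and 10.2% were called. All 4 calls held under every alternative run, including each library left out in turn.

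The first hour went the other way in these roots. BM1 was 0.91 ± 0.27 lower than at 0 h in NN (adjusted p = 0.0303) and 0.48 ± 0.27 lower in TX (adjusted p = 0.208), and neither reached the size threshold. In NN the difference was -1.29 without replicate 2 of the root controls, the lower of the pair, and was then called. From 1 h to 72 h BM1 rose by 2.89 ± 0.27 in NN (adjusted p = 2.47e-05) and by 2.68 ± 0.27 in TX (adjusted p = 5.16e-05), with 26.0% and 21.9% of the genes called. Its responses in roots did not differ between the varieties beyond their error at any time, with differences of -0.11 to 0.43 and intervals of -0.42 to 1.27 at 1 h, -0.62 to 1.07 at 72 h and -0.95 to 0.74 at 2 w. Few genes differed there, 0.00908%, 0.472% and 0.114% of those tested.

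In waterlogging leaves BM1 ranged from 19.4 to 57.4 FPKM and neighbouring groups overlapped. Of the 7 neighbouring pairs in the order of the 8 group means, 0 had libraries that did not overlap, a count not made for other genes. Its difference from 0 h was -0.71 to -0.06 over the 6 comparisons, with 0 called by limma and 0 at an unadjusted p under 0.05. Few genes of any kind were called there, between 0.192% and 1.61% of those tested. In leaves relative to roots, the change of BM1 was -2.69 ± 0.47 in NN at 72 h (adjusted p = 0.000747) and -2.82 ± 0.47 in TX at 72 h (adjusted p = 0.000514), where 10% and 10.4% of the genes were called, and both held under every alternative. At 2 w the difference was -1.94 ± 0.47 in NN (adjusted p = 0.0187, 5.6% of the genes called) and -1.70 ± 0.47 in TX (adjusted p = 0.052, 3.24% called). The TX value was called with median-ratio scaling (-1.98), on HORVU rows (-1.68) and without the trend. The NN call at 2 w was lost when any one of 4 libraries was left out, namely replicate 2 of the 2 w leaves (-1.57), of the 2 w roots (-1.79), of the leaf controls (-1.99) or of the root controls (-1.56), with adjusted p values of 0.0587 to 0.11. The first of these libraries was the one in which ENSRNA rows took 36.1% of the FPKM, and the part of that share in the result was not tested.

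**Figure D3:**
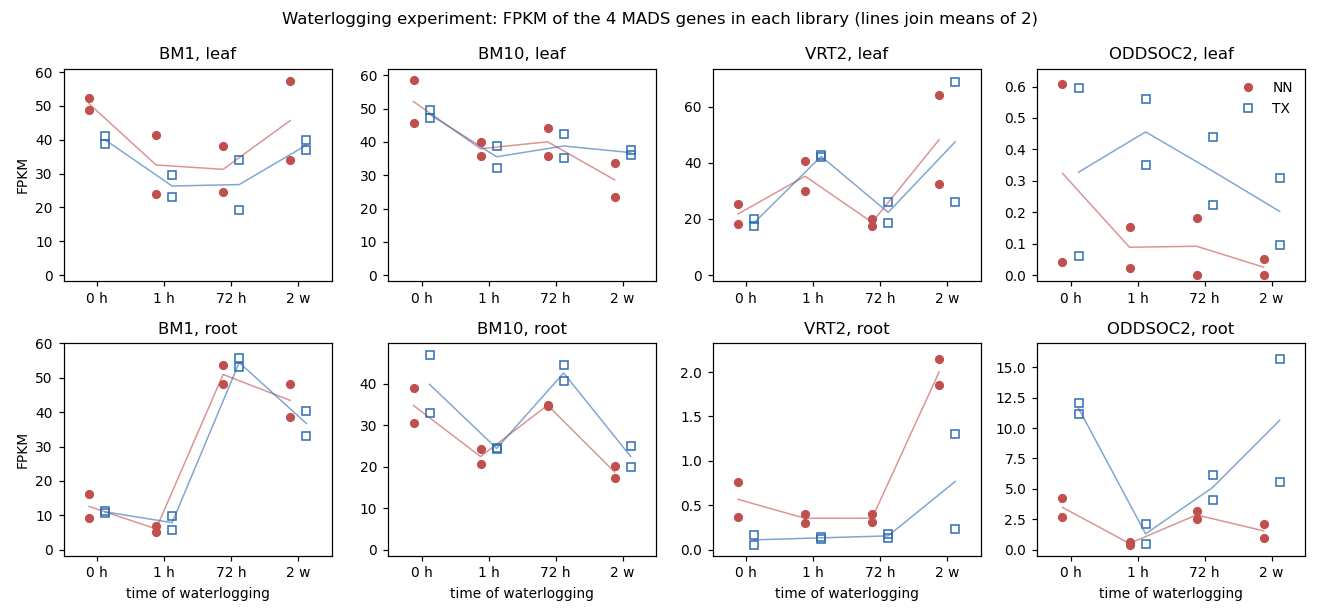
FPKM of the 4 genes in each library of the waterlogging experiment by time, leaves above and roots below; symbols and lines are as in the plot of the salt libraries. BM1 in roots lies at 5.26 to 16.1 FPKM up to 1 h and at 33.2 to 55.8 FPKM from 72 h on, and ODDSOC2 in roots is at 0.402 to 2.10 FPKM at 1 h in both varieties.

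BM10 was the steadiest of the 4. Over 64 libraries it ranged from 17.3 to 58.5 FPKM, and its highest value was 1.66 times the lowest in salt leaves, 1.99 times in salt roots, 2.49 times in waterlogging leaves and 2.71 times in waterlogging roots. None of its 24 differences from 0 h was called by limma, and they ran from -0.85 to 0.51, with an unadjusted p under 0.05 in 6. Over the 24 comparisons together 9.05% of all tests were called. NN leaves under salt held 26.7 and 29.3 FPKM at 0 h and 40.6 and 40.03 at 24 h, a difference of 0.51 ± 0.17 (adjusted p = 0.0912). The other salt differences of BM10 ran from -0.52 to 0.36.

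Waterlogged roots were where BM10 moved, by less than the size threshold. In NN its level was 30.5 and 39.1 FPKM at 0 h, 24.3 and 20.7 at 1 h, 34.7 and 35.0 at 72 h, and 17.3 and 20.2 at 2 w. In TX it was 32.9 and 46.9 FPKM at 0 h, 24.4 and 24.5 at 1 h, 44.6 and 40.6 at 72 h, and 20.04 and 24.9 at 2 w. The 1 h and 2 w libraries lay below all 0 h and 72 h libraries, which was not counted for other genes. BM10 was lower at 1 h by 0.60 ± 0.20 in NN (adjusted p = 0.044) and 0.66 ± 0.20 in TX (adjusted p = 0.027), and at 2 w by 0.85 ± 0.20 in NN (adjusted p = 0.0146) and 0.79 ± 0.20 in TX (adjusted p = 0.0222). At 72 h it differed from 0 h by 0.01 and 0.11. The 2 w difference passed the size threshold without replicate 1 of the NN root controls (-1.03) and without replicate 1 of the TX root controls (-1.04). From 72 h to 2 w it fell by 0.87 in NN (adjusted p = 0.00496) and 0.90 in TX (adjusted p = 0.00417), where 26.2% and 25.2% of the genes were called, and the TX value was -1.05, then called, without replicate 2 of 2 w. At 2 w BM1 was therefore above and BM10 below its control level in the same libraries of both varieties. In waterlogging leaves BM10 was below its controls in all 6 means, by -0.85 to -0.32, with 0 called. Single comparisons there called between 0.192% and 1.61% of all genes tested.

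**Figure D4:**
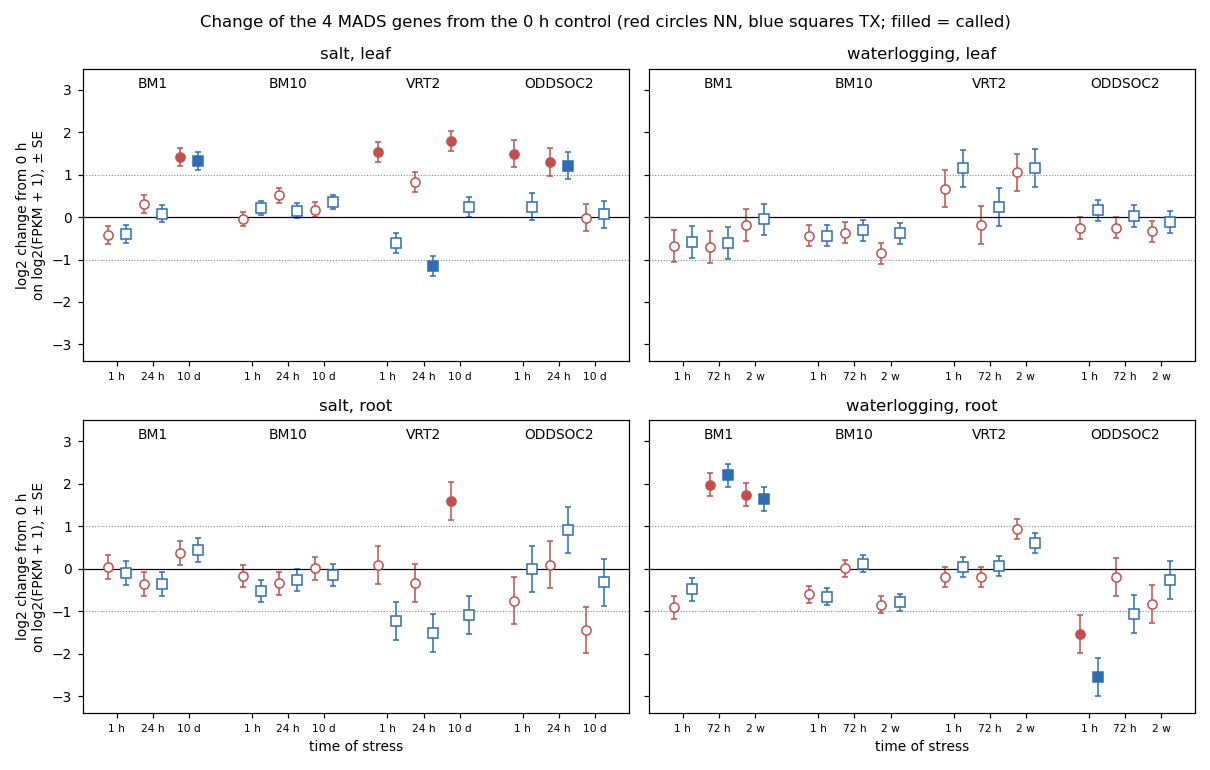
Log2 change of each gene from its 0 h control on the log2(FPKM + 1) scale, with its standard error, by stress and tissue; red circles are NN, blue squares are TX, filled symbols were called and dotted lines mark a change of 1. The called changes are those of BM1 at 10 d in salt leaves and from 72 h in waterlogged roots, of VRT2 in salt leaves and NN salt roots, and of ODDSOC2 in salt leaves and in waterlogged roots at 1 h.

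VRT2 set the varieties apart in the leaves of the salt controls. At 0 h NN leaves held 7.26 and 8.07 FPKM and TX leaves 40.6 and 28.6 FPKM, so that the lower TX library was above both NN libraries. The difference was 2.02 ± 0.23 (limma, adjusted p = 0.000363), in a comparison that called 9.07% of the genes tested, and it held under every alternative run. The control leaves of the waterlogging experiment did not show it. There NN held 18.2 and 25.2 FPKM and TX 17.4 and 19.8 FPKM, a difference of -0.20 ± 0.44 (adjusted p = 1.0, interval -1.18 to 0.78), where 1.1% of the genes were called. The tables were normalized apart, so that the levels of the experiments stand here side by side and were not compared.

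During salt the VRT2 levels of the varieties converged. At 1 h NN leaves held 28.6 and 20.3 FPKM and TX leaves 25.0 and 19.4 FPKM. At 24 h the values were 13.6 and 15.02 FPKM in NN and 15.7 and 14.1 FPKM in TX. At 10 d they were 34.5 and 24.4 FPKM in NN and 39.1 and 42.0 FPKM in TX. From 1 h on the difference between varieties was -0.12 to 0.47 and did not pass the test, while 1.67%, 3.2% and 4.68% of all genes did at 1 h, 24 h and 10 d. Both varieties thus had their lowest stressed level at 24 h, which was above the controls in NN and below them in TX.

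Against 0 h, VRT2 rose in NN leaves by 1.54 ± 0.23 at 1 h (3.19-fold, adjusted p = 0.00745) and by 1.79 ± 0.23 at 10 d (3.84-fold, adjusted p = 0.00013), and was 0.82 ± 0.23 higher at 24 h (adjusted p = 0.0503). At 1 h 4.63% of the genes tested were called in NN leaves, and at 10 d 27.8%. The 1 h call was lost without replicate 1 (1.47, adjusted p = 0.0569) or 2 (1.60, adjusted p = 0.0599) of the NN controls, whereas the 10 d call held under every alternative. Without the first 1 h library, the one with 18 TX-only genes, the 1 h value was 1.30 and still called. In TX leaves VRT2 fell by 1.15 ± 0.23 at 24 h (adjusted p = 0.00415), where 17.3% of the genes were called, and 12.5% of all genes tested were called lower. The median gene was 0.35 lower in that comparison, and with median-ratio scaling, which removes this shift, the fall was 0.64 (adjusted p = 0.0574). Without replicate 1 of the TX leaf controls it was 0.90 (adjusted p = 0.0296). At 1 h and 10 d the TX differences were -0.61 ± 0.23 and 0.24 ± 0.23 (adjusted p = 0.081 and 0.47), with 11.3% of the genes called at 1 h.

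The VRT2 response to salt was therefore lower in TX than in NN leaves, by 2.14 ± 0.33 at 1 h (adjusted p = 0.0347), 1.97 ± 0.33 at 24 h (adjusted p = 0.0291) and 1.55 ± 0.33 at 10 d (adjusted p = 0.039). In these comparisons 0.298%, 3.5% and 2.05% of the genes tested were called. The 3 differences share the same 4 control libraries and are not independent of one another or of the control difference. With either NN control library left out, 0 of the 3 were called, with differences of -2.21 to -1.49 and adjusted p values of 0.0912 to 0.174. Leaving out replicate 1 of the TX controls left 1 call, with -1.72 (adjusted p = 0.0503) at 24 h and -1.31 (adjusted p = 0.0672) at 10 d. Of single stressed libraries, the 1 h call was lost without replicate 1 of NN (-1.91) or replicate 1 (-2.32) or 2 (-1.97) of TX, the 24 h call without replicate 1 (-2.04) or 2 (-1.90) of NN or replicate 2 of TX (-1.89), and the 10 d call without replicate 1 (-1.31) or 2 (-1.79) of NN or replicate 1 (-1.5) or 2 (-1.60) of TX. Between 24 h and 10 d VRT2 rose in TX leaves by 1.39 ± 0.23 (adjusted p = 0.000909, 23.2% of the genes called), or 0.97 with median-ratio scaling.

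In salt roots VRT2 was low, and 1 group stood above the rest of its variety. NN roots held 0.612 and 0.899 FPKM at 0 h, 1.08 and 0.678 at 1 h, 0.328 and 0.466 at 24 h, and 3.62 and 5.08 at 10 d, the last from 308 and 421 reads. Both 10 d libraries were above all 6 earlier NN libraries. The increase was 1.60 ± 0.45 over 0 h (5.76-fold, adjusted p = 0.0217, 23.3% of the genes called) and 1.93 ± 0.45 over 24 h (adjusted p = 0.00947, 22.6% called). The first call was lost without any one of its libraries, namely replicate 1 (1.80) or 2 (1.40) of 10 d or replicate 1 (1.48) or 2 (1.72) of the controls, with adjusted p values of 0.0645 to 0.122. The second was lost without replicate 2 of 10 d (1.73) and without replicate 1 (1.86) or 2 (1.997) of 24 h. In the 10 d libraries the 40 genes limited to leaves stood at 0.224% and 0.203% of their leaf level, the highest of the salt roots. In replicate 2, which had the higher VRT2 value, 12 TX-only genes were above 0.5 FPKM, and in replicate 1 none were. The part of either in the VRT2 value was not tested.

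TX roots did not repeat this rise, but their controls disagreed. At 0 h the TX libraries held 1.07 and 5.38 FPKM of VRT2, the second from 408 reads, at 1 h 0.656 and 0.436, at 24 h 0.377 and 0.184, and at 10 d 0.237 and 1.39 FPKM. Stressed TX libraries were all below the second control library, and those of 1 h and 24 h also below the first. The differences from 0 h were -1.24 ± 0.45, -1.51 ± 0.45 and -1.08 ± 0.45 at 1 h, 24 h and 10 d, with 0 called by limma (adjusted p = 0.185, 0.164 and 0.189) and an unadjusted p under 0.05 in all of them. Without replicate 1 of the TX controls, the lower of the pair, the values were -2.05, -2.32 and -1.89 and all were called, and TX was then 1.87 above NN at 0 h, also called. The 10 d value was -1.56 and called without replicate 2 of TX at 10 d. That left replicate 1 alone, in which 12 of 54 NN-only genes were above 0.5 FPKM, against 5 in replicate 2. The part of those genes in the VRT2 values was not tested. The difference of the 10 d response between varieties was -2.68 ± 0.63 (adjusted p = 0.0587, 1.39% of the genes called), and it was called with the replicate number as a block (adjusted p = 0.0425), without that control library (-3.49) and without replicate 2 of TX at 10 d (-3.16). In the control library with 5.38 FPKM the genes limited to leaves stood at 0.11% of their leaf level, against 0.0671% in the other. In the TX roots of 10 d they stood at 0.0497% and 0.124%, with VRT2 at 0.237 and 1.39 FPKM. In the NN root controls they stood at 0.0479% and 0.107%, with VRT2 at 0.612 and 0.899 FPKM. The part of these genes in the VRT2 value was not tested.

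VRT2 in waterlogging leaves had higher means at 1 h and 2 w than at 0 h in both varieties, but 0 of its 6 differences were called by limma, with an unadjusted p under 0.05 in 3. At 1 h NN leaves held 29.8 and 40.6 FPKM and TX leaves 42.6 and 41.9, all above the control libraries of their variety. At 72 h they were back among the controls, with 17.5 and 20.01 FPKM in NN and 18.7 and 25.9 FPKM in TX. At 2 w the replicates parted, with 32.3 and 64.0 FPKM in NN and 68.8 and 26.1 FPKM in TX. The differences from 0 h were 0.67 ± 0.44 and 1.15 ± 0.44 at 1 h and 1.05 ± 0.44 and 1.15 ± 0.44 at 2 w in NN and TX, with adjusted p values of 0.342 to 0.6. In the comparisons of waterlogging leaves with their controls 0.744%, 0.762% and 0.655% of all genes were called in NN and 0.716%, 1.61% and 0.192% in TX, in the order of the times. The 64.0 FPKM in NN came from the library in which ENSRNA rows took 36.1% of the FPKM, and only the 32.3 FPKM library remains without it. Without the 3 leaf libraries richest in ENSRNA rows none of the differences became a call. That run kept TX 1 h replicate 1 and NN 72 h replicate 2, in which these rows took 11.5% and 10.8%.

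In waterlogged roots VRT2 was at 0.0568 to 2.15 FPKM, far below the other SVP-like genes. NN roots rose at the last time, from 0.311 and 0.398 FPKM at 72 h to 2.15 and 1.85 FPKM at 2 w, a difference of 1.15 ± 0.24 (adjusted p = 0.00265, 26.2% of the genes called) that held under every alternative. Against the 0 h libraries, with 0.374 and 0.761 FPKM, it was 0.95 ± 0.24 (adjusted p = 0.0182), just under the size threshold, and 1.15 with median-ratio scaling or 1.13 without replicate 2 of the controls, then called. The groups of 2 w and 0 h in NN did not overlap. TX roots held 0.0568 and 0.165 FPKM at 0 h and 1.30 and 0.235 at 2 w, so that 1 of the TX libraries of 2 w rose and the other stayed near its controls. The TX difference was 0.60 ± 0.24 (adjusted p = 0.0904), or 1.05 without replicate 2 of 2 w, then called. The NN roots of 10 d of salt and of 2 w of waterlogging were thus the NN root groups with the highest VRT2 in their experiments.

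ODDSOC2 was near the limit of detection in control leaves and rose under salt. NN leaves held 0.0257 and 0.0273 FPKM at 0 h, which is 1 read in each library, 3.35 and 0.927 FPKM at 1 h from 75 and 29 reads, 2.005 and 1.11 FPKM at 24 h from 60 and 35 reads, and 0 and 0.0311 FPKM at 10 d from 0 and 1 read. TX leaves held 0.0722 and 0.450 FPKM at 0 h, 0.691 and 0.293 at 1 h, 1.72 and 2.06 at 24 h, and 0.304 and 0.302 at 10 d. Both varieties were above their controls at 24 h without overlap and back among or near them at 10 d. No fold is given against controls of 1 read.

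On the log2 scale ODDSOC2 rose in NN leaves by 1.495 ± 0.32 at 1 h (adjusted p = 0.0213, 4.63% of the genes called). At 24 h it rose by 1.30 ± 0.32 in NN (adjusted p = 0.0306, 6.34% called). In TX leaves the rise at 24 h was 1.21 ± 0.32 (adjusted p = 0.0144, 17.3% called). With a pseudocount of 0.1 these were 3.89, 3.66 and 2.69 and still called. From 24 h to 10 d it fell by 1.31 in NN (adjusted p = 0.00727) and by 1.15 in TX (adjusted p = 0.0162). In these comparisons 26.7% and 23.2% of the genes were called. The TX leaves at 1 h were 0.25 ± 0.32 above their controls (adjusted p = 0.625), and the 1 h response differed between the varieties by -1.25 ± 0.46 (adjusted p = 0.22), which did not pass the test. Without the second NN library of 1 h it was -1.84 and called, as was the difference of TX from NN at 1 h (-1.56). That left NN at 1 h with its first library alone, in which 18 of 45 TX-only genes were above 0.5 FPKM.

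These leaf calls rest on few libraries. The NN 1 h call was lost without replicate 1 of 1 h (0.91, adjusted p = 0.0898) or replicate 1 (1.494) or 2 (1.496) of the controls. That 1 h library was the one holding 18 TX-only genes, and its 3.35 FPKM was above both TX leaf libraries of 1 h. In it 6 genes limited to roots stood at 0% of their root level, and the part of the TX-only genes in the ODDSOC2 value was not tested. The NN 24 h call was lost without replicate 1 (1.04) or 2 (1.55) of 24 h and without replicate 1 (1.29) or 2 (1.30) of the controls, with adjusted p values of 0.0677 to 0.183. The TX 24 h call was lost without replicate 2 of 24 h (1.13, adjusted p = 0.0799) or replicate 1 of the controls (0.99, adjusted p = 0.0832). The falls from 24 h to 10 d were lost without replicate 1 of NN at 24 h (-1.06), and in TX without replicate 1 (-1.15) or 2 (-1.15) of 10 d or replicate 2 of 24 h (-1.06).

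In salt roots ODDSOC2 was higher than in leaves and did not pass the test at any time. NN roots held 5.68 and 6.13 FPKM at 0 h, 2.10 and 4.41 at 1 h, 10.4 and 3.74 at 24 h, and 1.74 and 1.36 at 10 d. TX roots held 13.6 and 3.55 FPKM at 0 h, 8.83 and 5.66 at 1 h, 13.9 and 14.7 at 24 h, and 4.04 and 7.43 at 10 d. The libraries of NN at 10 d were the 2 lowest of all 16, 1.44 ± 0.55 below their controls (adjusted p = 0.0691), or 1.87 below with a pseudocount of 0.1 (adjusted p = 0.0483, then called). The TX roots of 24 h were the highest group, with a difference from 0 h of 0.91 ± 0.55 (adjusted p = 0.565). In the TX control library with the low ODDSOC2 value, VRT2 had its high value of 5.38 FPKM.

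ODDSOC2 was lower in waterlogged roots at 1 h in both varieties. NN roots held 4.24 and 2.72 FPKM at 0 h, 0.632 and 0.402 at 1 h, 3.22 and 2.502 at 72 h, and 2.15 and 0.959 at 2 w. TX roots held 11.2 and 12.1 FPKM at 0 h, 2.10 and 0.510 at 1 h, 6.14 and 4.10 at 72 h, and 5.56 and 15.7 at 2 w. The 1 h libraries were below all other libraries of their variety, which was not counted for other genes. The fall from 0 h was 2.54 ± 0.44 in TX (adjusted p = 0.00192, 18.2% of the genes called in either direction and 7.21% lower) and held under every alternative. In the first TX library of 1 h, of relative depth 0.543, ENSRNA rows took 14.6% of the FPKM against at most 1.25% in any other root library, and without it the difference was -3.06. In NN it was 1.55 ± 0.44 (adjusted p = 0.0251, 15.9% called), and that call was lost when any one of its 4 libraries was left out, replicate 1 (-1.66) or 2 (-1.44) of 1 h or replicate 1 (-1.30) or 2 (-1.79) of 0 h, with adjusted p values of 0.0573 to 0.141. With a pseudocount of 0.1 the falls were 3.34 in TX and 2.53 in NN, both called. The varieties did not differ in this response beyond the error (-0.998 ± 0.63, interval -2.38 to 0.38).

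From 1 h to 72 h ODDSOC2 rose again, by 1.35 ± 0.44 in NN (adjusted p = 0.0297) and 1.48 ± 0.44 in TX (adjusted p = 0.0224). In these comparisons 26.0% and 21.9% of the genes were called. At 72 h ODDSOC2 was 0.20 below 0 h in NN (adjusted p = 0.765) and 1.06 below in TX (adjusted p = 0.0815). The NN rise was lost without any of its 4 libraries, replicate 1 (1.46) or 2 (1.24) of 1 h or replicate 1 (1.21) or 2 (1.48) of 72 h, and the TX rise without replicate 2 of 1 h (0.96) or replicate 1 of 72 h (1.24). Without the TX library of 1 h rich in ENSRNA rows the TX rise was 1.998. BM1 rose over the same interval in the same roots, while BM10 was 0.62 and 0.78 higher (adjusted p = 0.0269 and 0.0104), under the size threshold. In waterlogging leaves ODDSOC2 stayed at 0 to 0.608 FPKM, from 0 to 19 reads. Of its 6 differences from 0 h, 0 were called by limma and 0 had an unadjusted p under 0.05. Single comparisons there called between 0.192% and 1.61% of all genes tested. The highest ODDSOC2 value, in the first NN library of 0 h, stood where genes limited to roots were at 0.97% of their root level. Their part in it was not tested. In TX the ODDSOC2 change at 1 h was higher in leaves than in roots by 2.70 ± 0.54 (adjusted p = 0.00619, 3.67% of the genes called). The roots fell, while the leaves differed from 0 h by 0.16 ± 0.25 (adjusted p = 0.848). With a pseudocount of 0.1 the difference between tissues was 4.05 and no longer called (adjusted p = 0.084). Leaf values were too near 0 to show a fall of that size.

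The mean of ODDSOC2 lay on the same side by variety in every pair of root groups, a count not made for other genes. It was higher in TX than in NN roots at all 4 times of both experiments, by 0.24 to 1.36 under salt and by 0.52 to 2.08 under waterlogging. At 0 h of salt the TX libraries (13.6 and 3.55 FPKM) lay on either side of both NN libraries (5.68 and 6.13 FPKM). Of these 8 differences 1 was called, that of 2 w of waterlogging (2.08 ± 0.44, adjusted p = 0.0254), where 2.41% of the genes tested were called. The 4 salt comparisons of roots called 5.19%, 1.65%, 1.99% and 2.57% of the genes. The 2 w call was lost without replicate 1 (2.42) or 2 (1.73) of NN and without replicate 2 of TX (1.40), with adjusted p values of 0.0588 to 0.235. At 0 h of waterlogging the NN and TX libraries did not overlap, and the difference was 1.52 ± 0.44 (adjusted p = 0.108), with 2.88% of the genes called there and 2.33% and 3.29% at 1 h and 72 h. Over all 4 genes the comparison of TX with NN gave 2 calls in 64, this one and VRT2 in the leaves of the salt controls, where the 16 comparisons together called 2.81% of the tests. BM1 and BM10 gave 0 calls in 16 each by limma, with differences of -0.33 to 0.30 and -0.24 to 0.38 and an unadjusted p under 0.05 in 0 and 1.

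Of the 96 differences from 0 h, 15 were called: 8 in salt leaves, 1 in salt roots, 0 in waterlogging leaves (4 at an unadjusted p under 0.05) and 6 in waterlogging roots. Single comparisons called between 0.0538% and 27.8% of all genes tested (median 5.48%), and all 24 together 9.05% of the tests. By gene, BM1 rose in 6 and fell in 0, VRT2 rose in 3 and fell in 1, ODDSOC2 rose in 3 and fell in 2, and BM10 gave none. Salt calls were spread over 3 genes, and the waterlogging calls were those of BM1 and ODDSOC2. Most neighbouring groups overlapped. In each combination of gene, experiment and tissue, 0 to 3 of the 7 neighbouring pairs in the order of 8 group means had libraries that did not overlap. Neither this count nor the overlap of any other groups was taken for other genes, so neither marks a trait of these 4. For BM1 in waterlogging roots the separated steps were NN 72 h above NN 2 w, TX 2 w above NN 0 h and TX 0 h above TX 1 h.

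The genes did not move as 1 group. Over the 16 libraries of each experiment and tissue, which share controls, depth and scaling, Pearson's r between BM1 and BM10 was 0.43, 0.52, 0.21 and 0.12 in salt leaves, salt roots, waterlogging leaves and waterlogging roots (Spearman's rho 0.46, 0.37, 0.25 and 0.30). Between BM10 and VRT2 it was 0.13 and 0.30 under salt but -0.63 and -0.60 in waterlogging leaves and roots (rho 0.10, 0.18, -0.64 and -0.50). VRT2 and ODDSOC2 lay opposite in salt roots, with r = -0.63 and rho = -0.58, and at -0.27 and -0.29 in waterlogging roots.

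Among 16955 other genes that passed the filter in all 4 sets, the row most like each gene was the one with the highest smallest r. It was HORVU7Hr1G078500 for BM1 (r from 0.73 to 0.81), HORVU3Hr1G117390 for VRT2 (0.64 to 0.84), HORVU3Hr1G049720 for BM10 (0.56 to 0.63) and HORVU0Hr1G000810 for ODDSOC2 (0.45 to 0.62). No name is paired with these identifiers in the sources used here. In bulk tissue a lower level can mean fewer cells that express a gene or less RNA in each cell, and these cannot be told apart.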

How the data were processed

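The values the authors deposited are FPKM, in 1 table per experiment. Libraries were made by oligo(dT) selection with a kit that marks the strand, per the labels. HISAT, HISAT2 and featureCounts 1.5.0 are named in the notes of the submitters. Build and annotation: not given in the sources used here. In other sheets 82 value columns were not used. The 64 libraries were grouped by experiment, variety, tissue and time from the sample labels, and the tables, treated as normalized apart, were tested separately.

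Moderated tests were made in R 4.3.3 with limma 3.58.1, with a mean-variance trend on log2(FPKM + 1) and no further scaling, per experiment and tissue (16 libraries, 8 groups), and over both tissues for comparisons of leaf with root. Rows needed at least 0.5 FPKM in at least 2 libraries. P-values were adjusted by Benjamini-Hochberg over all rows of a fit. The fits were tested on simulated data. The 96 contrasts were 24 against 0 h, 16 of TX with NN, 12 of the response between varieties, 16 of neighbouring times, 16 of leaf with root and 12 of the response in leaf and root. The last 12, and the check of salt libraries with genes chosen in waterlogging tissues, were added after the data were seen. Relative depth came from the step of 1 read in 3420 low rows, where 100.0% of values under 100 reads lay within 0.1 of a whole read. Because these are FPKM, the main test stayed on the log scale.

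Alternatives were a pseudocount of 0.1, no filter, median-ratio scaling, HORVU rows only, the replicate number as a block, no trend, each library left out, and waterlogging leaves without the 3 libraries richest in ENSRNA rows. The genes described are the 4 members and, for each, the row whose smallest correlation over the 4 sets was highest. The rule for the members uses no measured value, but members and lists were chosen with earlier results of these data known. Of the 43050 identifiers, 0 matched the RefSeq gene table, so no coordinates or sequences are given. Tables and plots were made in Python 3.11.15 with numpy 2.4.6, pandas 2.3.3, matplotlib 3.10.9 and scipy 1.17.1.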

Additional observations from a re-analysis of the deposited data

Results flagged for a closer look

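The response of VRT2 in salt leaves differed between TX and NN, by a test of the difference itself, by -2.14 at 1 h, -1.97 at 24 h and -1.55 at 10 d on the log2 scale. The 3 values share their controls, and TX minus NN was 2.02 in those controls but -0.20 in the control leaves of the waterlogging experiment.

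The response of BM1 differed between leaf and root, again by a test of the difference, by 1.05 in NN at 10 d of salt and by -2.69 and -2.82 in NN and TX at 72 h and -1.94 in NN at 2 w of waterlogging. These are late times, and at 1 h the difference was not called in either experiment, with -0.47 and -0.30 in NN and TX under salt and 0.23 and -0.12 under waterlogging. The salt call is lost with median-ratio scaling (0.76) or without any one of 5 libraries. The response of ODDSOC2 to 1 h of waterlogging in TX differed between leaf and root by 2.70, with leaf values of 2 to 19 reads.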

How the results depend on the processing

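Of 384 differences of the 4 genes, 73 were called, 45 of them under every alternative run, and 21 lost the call only when 1 library was left out. No called difference changed sign. Of the 311 not called, 34 were called under at least 1 alternative.

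Median-ratio scaling, which moved the median gene by -0.29 to 0.49, lowered VRT2 in TX salt leaves at 24 h to -0.64 and the BM1 difference of leaf and root response in NN at 10 d of salt to 0.76, or 0.99 on HORVU rows. The ODDSOC2 difference of leaf and root response to 1 h of waterlogging in TX was 4.05 at a pseudocount of 0.1, with an adjusted p of 0.084. Calls between neighbouring times in salt leaves numbered 5, and 2 with median-ratio scaling. With a pseudocount of 0.1, calls in salt roots went from 1 to 2 both against 0 h and between neighbouring times. Calls of the salt response between leaf and root went from 1 to 2 with median-ratio scaling and with a pseudocount of 0.1, and to 0 on HORVU rows. The cause was not tested.

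With each library left out in turn, ODDSOC2 in salt leaves ranged from 0.91 to 2.08 in NN at 1 h, 1.04 to 1.55 in NN at 24 h and 0.99 to 1.43 in TX at 24 h. VRT2 in salt leaves ranged from 1.30 to 1.77 in NN at 1 h and from -1.39 to -0.90 in TX at 24 h, and in NN salt roots at 10 d from 1.40 to 1.80. Its response in TX relative to NN ranged from -2.39 to -1.90 at 1 h, -2.21 to -1.72 at 24 h and -1.80 to -1.31 at 10 d. ODDSOC2 in waterlogging roots ranged from -1.79 to -1.30 in NN at 1 h and from 1.40 to 2.75 in TX relative to NN at 2 w. The BM1 response in leaf relative to root ranged in NN from 0.88 to 1.22 at 10 d of salt and from -2.32 to -1.56 at 2 w of waterlogging. In salt leaves the calls numbered 5 to 8 against 0 h, 3 to 6 between neighbouring times, 1 to 2 for TX with NN and 0 to 4 for the response between varieties. In salt roots these counts were 0 to 4, 0 to 2, 0 to 1 and 0 to 2. The calls of TX with NN in waterlogging roots numbered 0 to 2, and those of the salt response between leaf and root 0 to 3.

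With the replicate number as a block, 73 of 73 calls remained and 1 was gained, the VRT2 response in TX relative to NN roots at 10 d of salt (-2.68, adjusted p = 0.0425), so that calls of that kind in salt roots went from 0 to 1. The methods have NN and TX sharing a pot, but no label ties a replicate number to a pot. Of the 4 pairs of NN and TX groups of one time, 2, 0, 1 and 3 had deviations correlated above 0.1. The order is salt leaves, salt roots, waterlogging leaves and waterlogging roots. Of all 28 pairs of groups 4, 10, 11 and 13 did, and in waterlogging leaves r ran from -0.68 to 0.64. Without a tie of replicate numbers to pots, these values cannot show whether libraries shared a pot, and no pairing was assumed. Depth limited ODDSOC2 in leaves, at 0 to 75 reads, and VRT2 in waterlogging TX roots, whose controls held 5 and 20 reads.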
